A study of Bubalus bubalis with 6 samples.

Results

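C/D box snoRNAs are small nucleolar RNAs that carry 2 short conserved motifs, box C and box D. In the gene table of buffalo muscle stem cells (MuSCs), 275 of 24616 genes were annotated as snoRNA with a symbol that starts with SNORD, and all 275 were kept as members, each gene copy on its own. They carried 98 distinct symbols, and 128 of them (85 symbols) had 10 or more counts summed over the 6 samples. These 128 were described one by one and tested, another 55 had 1 to 9 counts, and 92 had no count in any sample. A count of 0 still allows up to 3 counts in a library, by counting error alone.

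A C/D box snoRNA assembles with fibrillarin (FBL), NOP56, NOP58 and SNU13 into a ribonucleoprotein (snoRNP), and its base pairing with ribosomal RNA guides fibrillarin to the nucleotide whose ribose is methylated. Most vertebrate C/D box snoRNAs lie in introns of a host gene, are transcribed with it, and are released by splicing and trimming of the excised intron. Host genes are often ribosomal protein or ribosome assembly genes, or non-coding genes whose spliced product has no known protein. The SNORD112 to SNORD114 and SNORD115 to SNORD116 families differ from this, since they form long arrays of near-identical copies in imprinted regions and have no well established rRNA target.

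The cells were primary MuSCs of water buffalo (Bubalus bubalis), obtained from fetal longissimus muscle by digestion with collagenase and trypsin, and no transgene or drug was named for any group. The 3 GM samples (GM1 to GM3) were proliferating cells in growth medium, high-glucose DMEM with fetal bovine serum, penicillin and streptomycin. The 3 DM samples (DM1 to DM3) were differentiating cells, moved to DMEM with horse serum when almost confluent. The share of horse serum was lower than that of fetal bovine serum in growth medium. The study's methods give an upper limit of some days in this medium, and the labels give no time for the single samples. The labels do not say that each sample came from a culture or an animal of its own, so p-values measure only the spread between these samples. The libraries were made from poly(A) RNA, and mature C/D box snoRNAs generally carry no poly(A) tail, so the counts are reads that fell on the annotated intervals of these genes and not a measure of the mature snoRNA pool. Reads from unspliced host introns that cover an interval are part of them.

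Gene counts per sample ranged from 35615864 to 40305237, so that 1 read weighed about the same in every library. Among the muscle markers, MYOG, a transcription factor of differentiating myocytes, was called higher in DM, and MYF5, a factor of proliferating myoblasts, was called lower. PAX7, MYOD1, DES and CDH15 were detected in all samples and not called. By CPM, PAX7 and CDH15 were lower in all DM samples (log2 fold change −0.92 and −0.53). MYOD1 was higher in all of them (0.90), and DES overlapped. The summed level of the 5 fibroblast markers was 16607 to 16745 CPM in GM and 45691 to 52226 CPM in DM, 4 of the 5 being called higher. PDGFRA, the fibroblast marker not called, had a log2 fold change of 0.58. That of the 6 muscle markers together was 2542 to 2777 CPM in GM and 2122 to 2709 CPM in DM. Most of the fibroblast sum was COL1A1, with a mean of 15287 CPM in GM and 44328 in DM. Most of the muscle sum was DES (2274 and 2051 CPM), so the sums say little about the other markers. The summed levels of 4 adipocyte, 4 endothelial and 4 immune markers stayed at or under 1.23, 5.65 and 13.1 CPM in every sample. Of these, the adipocyte marker FABP4, the endothelial marker TEK and the immune marker CD14 were called higher in DM, CDH5 (endothelial) and CD68 (immune) were called lower, and PTPRC and CD3E had at most 2 counts in any sample. CD14 went from 34 to 54 counts in GM to 177 to 335 in DM. The part of the fibroblast markers and of these other markers in the results on snoRNAs was not tested. In such bulk samples, fewer cells of a type and less RNA per cell cannot be told apart.

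C/D box snoRNA counts were lower in DM than in GM. The 275 genes together took 4873, 4984 and 4474 counts in GM1, GM2 and GM3 and 1900, 2175 and 2050 counts in DM1, DM2 and DM3. As CPM, counts scaled to the gene counts of a sample, this was 122 ± 0.994 (SD, n = 3) in GM and 55.1 ± 2.82 (SD, n = 3) in DM, a DM over GM ratio of 0.450. All DM samples lay below all GM samples. The ratio was 0.482 after TMM normalization and 0.493 without the 5 genes that had the most counts, so that removing those 5 genes moved it little.

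**Figure D1:**
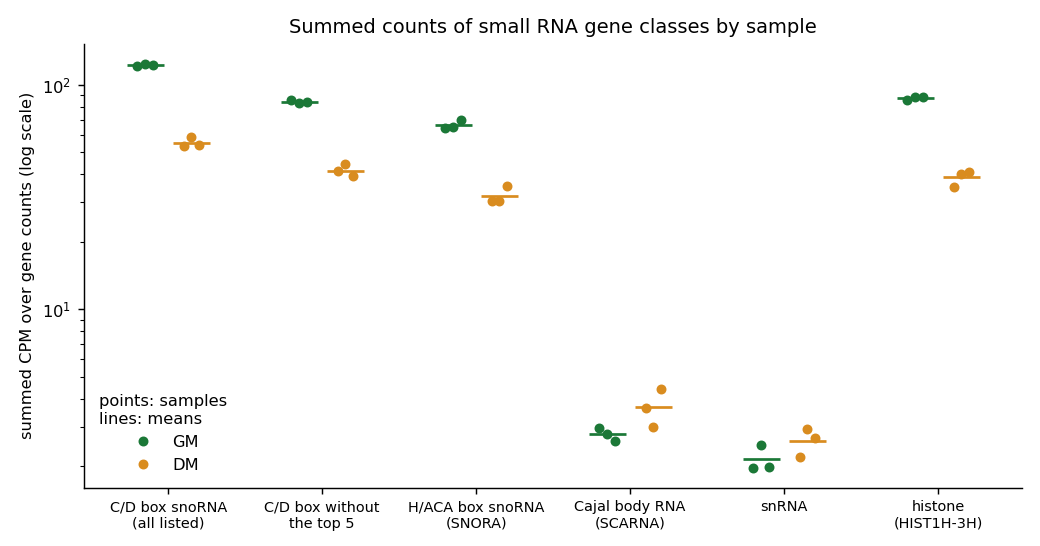
Summed CPM over gene counts (log axis) of small RNA gene classes in each sample, with points for the 3 GM and 3 DM samples and lines for their means. C/D box snoRNAs, with and without the 5 genes that had the most counts, H/ACA box snoRNAs and histone genes were lower in all DM samples, whereas SCARNA genes were higher in all DM samples and snRNA genes overlapped.

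Gene by gene, 40 of the 128 tested members (31.25%) were called lower in DM and 7 were called higher, a call being an adjusted p (edgeR, Benjamini-Hochberg over all 15576 tested genes) under 0.05 with a log2 fold change beyond 1 in size. Over all tested genes the same rule called 10.3% lower and 15.0% higher. The CPM of the 2 groups did not overlap for 74 members, 64 of them lower and 10 higher in DM, where 34.3% of all genes were lower without overlap and 34.5% were higher without overlap. The log2 fold change was below 0 in 106 members and above 0 in 22, and its median was −0.94, against 0.03 over all tested genes. The 7 members called higher all belonged to the SNORD112 and SNORD113 array on chromosome 21 described further on. With that array and the SNORD107, SNORD109A and SNORD116 genes of chromosome 21 set aside, 108 members remained, of which 40 were called lower, none was called higher, and 97 had a log2 fold change below 0.

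**Figure D2:**
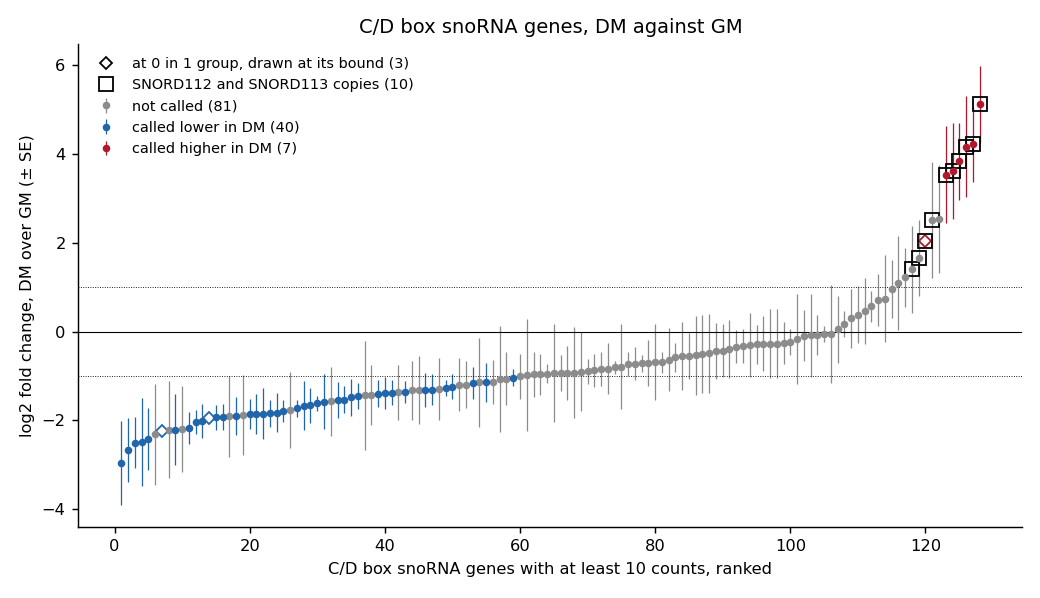
log2 fold change of DM over GM (± SE) for the 128 tested C/D box snoRNA genes in rank order, with colour for the call and squares for the SNORD112 and SNORD113 copies. The 40 called lower fill the left side, the 10 squares sit at the right end, and 3 genes with no count in 1 group are drawn at the bound set by 3 counts in that group.

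How many members were called followed the number of counts behind them. Of the 27 members with 200 or more summed counts, 17 were called lower, where 1264 of 12597 genes of that depth were. Of the 34 members with fewer but at least 50 counts, 14 were called lower (15.5% of all genes of that depth), and of the 67 with 10 to 49 counts, 9 were (8.08%). The median log2 fold change of these classes was −1.36, −1.07 and −0.55, and the median standard error was 0.28, 0.43 and 0.87. Differences near 2-fold were therefore not detectable in most members of the lowest class at this depth. The 7 members called higher were all in that class, where 15.4% of all genes of that depth were called higher.

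Gene length, 61 to 236 bases with a median of 79, did not order the change. Of 65 members under 80 bases, 22 were called lower and 7 higher (median log2 fold change −0.95). Of 49 members of 80 to 99 bases, 12 were called lower (median −0.92), and of 14 members of 100 bases or more, 6 were called lower (median −1.26). Across the 128 members, which share the libraries, Pearson's r of log2 fold change and length was −0.11 and Spearman's rho was 0.01.

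A small number of genes held much of the signal, the 10 members with the most counts taking 45.1% of all 20456 C/D box counts. SNORD94, which guides a modification of the U6 spliceosomal RNA and lies in the PTCD3 gene, had 406, 430 and 325 counts in GM and 68, 119 and 124 in DM (log2 fold change −1.73 ± 0.20 SE, adjusted p = 2.11e-05, edgeR). SNORD96, a guide for rRNA of the large subunit within RACK1, had 298, 324 and 324 counts in GM and 96, 107 and 146 in DM (−1.27 ± 0.17, adjusted p = 7.75e-05). SNORD86, which lies in NOP56 and takes part in the splicing of NOP56 itself, had 301, 323 and 280 counts in GM and 70, 88 and 104 in DM (−1.62 ± 0.16, adjusted p = 9.21e-06). In each of these 3 genes all DM samples lay far below all GM samples.

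Other abundant members fell by less. SNORD24 (ENSBTAG00000042974), a large subunit rRNA guide, had 295, 281 and 289 counts in GM and 156, 147 and 135 in DM, without overlap, and its log2 fold change of −0.81 ± 0.15 (adjusted p = 0.00078, edgeR) stayed under the size needed for a call. The same held for SNORD77, with 176, 152 and 141 against 65, 90 and 60 counts (−0.95 ± 0.21, adjusted p = 0.00243). SNORD47, a guide for the large subunit, had 141, 136 and 127 counts in GM and 52, 60 and 62 in DM and was just past that size (−1.04 ± 0.19, adjusted p = 0.000732). SNORD22 (ENSBTAG00000042524) fell further, from 157, 264 and 176 counts to 45, 61 and 47 (−1.79 ± 0.24, adjusted p = 7.64e-05).

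The 3 SNORD12 genes, large subunit guides that lie side by side on chromosome 13 from 78103078 to 78104388 (plus strand, coordinates as deposited beside the cattle identifiers, with no build named), differed in the size of their change, and none was called. ENSBTAG00000043036 had 181, 156 and 140 counts in GM and 96, 79 and 81 in DM (−0.72 ± 0.19, adjusted p = 0.00788). ENSBTAG00000043350 had 94, 139 and 114 against 48, 74 and 69 (−0.70 ± 0.24, adjusted p = 0.0261). ENSBTAG00000042099 had 118, 129 and 136 against 105, 114 and 109, a log2 fold change of −0.06 ± 0.18 (adjusted p = 0.809). The first pair was lower in all DM samples, while the CPM of the last overlapped between the groups. Whether the last differed from its neighbours in its change was not tested.

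**Figure D3:**
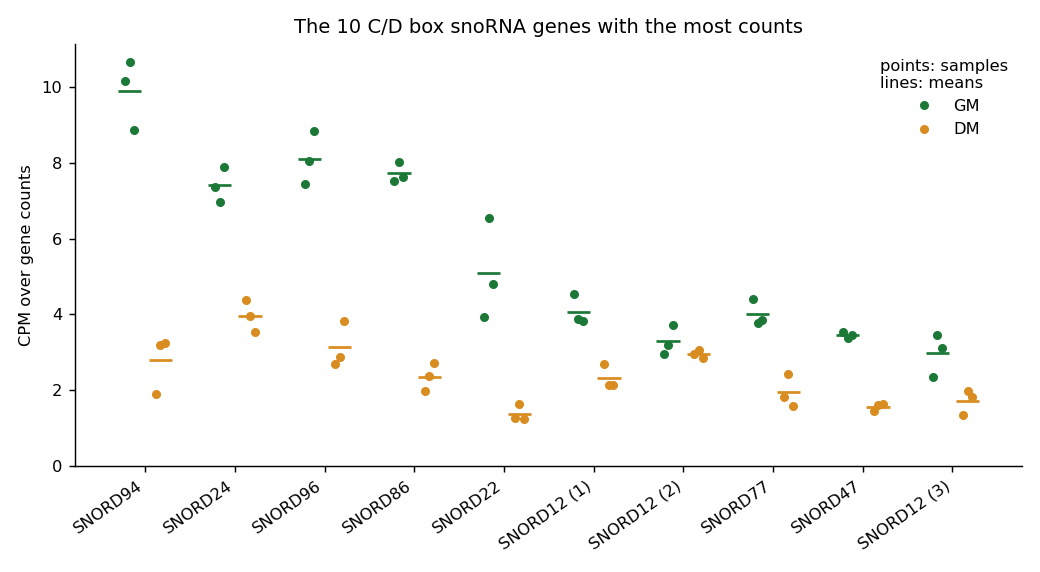
CPM over gene counts of the 10 C/D box snoRNA genes with the most counts, with points for the 3 GM and 3 DM samples and lines for their means. SNORD12 (1), (2) and (3) are ENSBTAG00000043036, ENSBTAG00000042099 and ENSBTAG00000043350, and the middle one is the gene whose GM and DM samples sit closest together.

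Per length, the order of levels in GM was led by the same genes. SNORD96 had a mean of 103 ± 8.82 RPKM (SD, n = 3) in GM and 39.6 ± 7.68 in DM, SNORD24 had 90.4 ± 5.57 and 48.2 ± 5.15, and SNORD86 had 89.8 ± 2.97 and 27.3 ± 4.41. SNORD24 and SNORD86 did not differ in GM beyond their spread. In DM, SNORD24 had the highest mean of all members, with SNORD96 next, and their spreads met. SNORD94, which is 136 bases long, came next in GM with 72.8 ± 6.83 RPKM and had 20.5 ± 5.57 in DM.

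Among members with at least 50 counts, the largest falls were in guides for both ribosomal subunits. SNORD70, a small subunit guide within NOP58, had 38, 19 and 16 counts in GM and 5, 4 and 2 in DM (log2 fold change −2.51 ± 0.58, adjusted p = 0.00309, edgeR). SNORD110, a small subunit guide within NOP56, had 101, 70 and 64 against 12, 10 and 24 (−2.17 ± 0.37, adjusted p = 0.000397). SNORD50 (ENSBTAG00000043202), a large subunit guide, had 112, 86 and 90 against 18, 26 and 18 (−2.04 ± 0.27, adjusted p = 7.5e-05). In each of the 3 genes the highest DM sample lay below the lowest GM sample. SNORD39 had 93, 125 and 92 counts in GM and 25, 34 and 17 in DM (−1.85 ± 0.30, adjusted p = 0.0003), and the SNORD14 copy ENSBTAG00000043480 had 29, 27 and 27 against 8, 4 and 8 (−1.86 ± 0.44, adjusted p = 0.0039). The other 5 of the 10 largest falls, SNORD29, SNORD30, SNORD28, SNORD49 and SNORD44, belong to groups described with their neighbours.

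A gene listed on the same strand around the snoRNA, taken as its host, was found for 109 of the 275 members, and 72 of these 109 (66.1%) reached 10 counts. Of the 166 members with no such gene, 56 (33.7%) did. The 72 tested members lay in 44 distinct hosts, 8 of which held 3 or more of them. The table lists no lncRNA genes, so a member without a host may lie in a non-coding gene that is not in it. Of the 44 hosts, 13 were called lower in DM and none was called higher, where 10.3% of all tested genes were called lower and 15.0% higher. The hosts had a median log2 fold change of −0.20 and a range from −1.33 to 0.59. Across the 72 pairs, several of which share a host, Pearson's r of the member's and the host's log2 fold change was 0.18 and Spearman's rho was 0.10, and over the 31 pairs whose member had at least 50 counts they were 0.25 and 0.22.

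The 13 hosts called lower held 25 members, and 11 of these 25 were called lower (median log2 fold change −1.14). The 31 hosts that were not called held 47 members, of which also 11 were called lower, with a median of −0.94. To compare each member with its own host, the log2 ratio of member counts to host counts was tested in limma over all 308 pairs of a nested gene and its host. Of the 72 C/D box pairs, 13 were called lower against the host in DM and none higher, where 13.6% of all pairs were called lower and 5.52% higher. Among the other 236 pairs 29 were called lower, and the difference between these shares was not tested. With a replicate block, 8 of the 72 were called lower. This number was 3 without GM1, 3 without GM2, 6 without GM3, 7 without DM1 and 5 without DM2, but SNORD96, SNORD100 and the SNORD33 gene ENSBTAG00000043197 were called in every one of these fits. The median difference was −0.65 for C/D box pairs and −0.23 for all pairs, and 47 of the 72 lay below 0. The 66 pairs of H/ACA box snoRNAs (SNORA) had a median of −0.92, with 12 called lower and 1 higher. Lower counts against the host were thus not particular to C/D box genes.

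**Figure D4:**
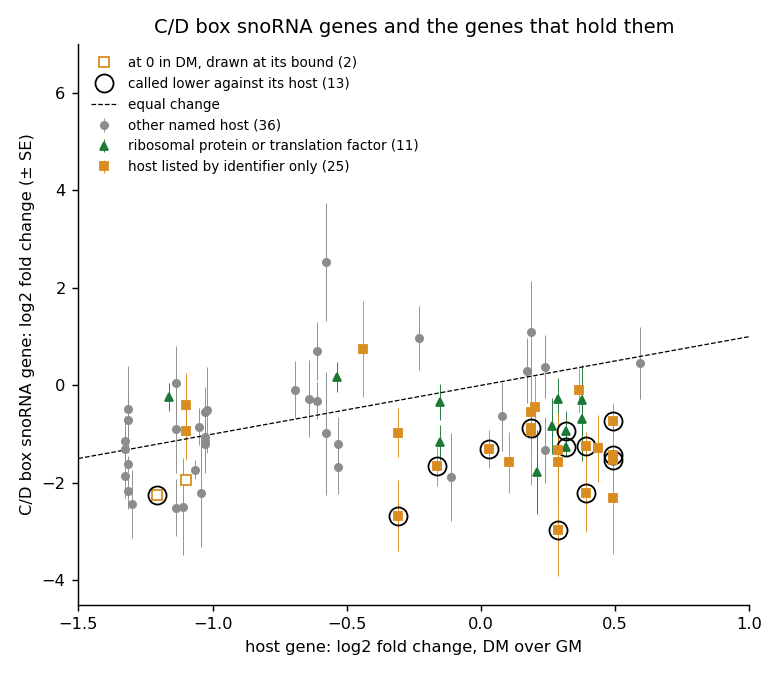
log2 fold change of the 72 C/D box snoRNA genes with a listed host (± SE) against that of the host, both DM over GM, with symbols for the host class and circles for the 13 members called lower against their host. Members of hosts near −1 lie around the dashed line of equal change, and members of hosts between 0 and 0.6 lie mostly below it.

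Of the hosts with 3 or more tested members, NOP56, NOP58 and GNL3, which act in ribosome assembly, were called lower. Hosts with fewer tested members differed: WDR43 was called lower (log2 fold change −1.04), while TSR1 (−0.58) and GLTSCR2 (0.08) were not called. NOP56, a core snoRNP protein, had 9187, 10284 and 8590 counts in GM and 2921, 3471 and 3618 in DM (log2 fold change −1.32 ± 0.07, adjusted p = 8.99e-08, edgeR) and held SNORD57, SNORD56, SNORD86 and SNORD110. SNORD86 made up 32.8, 31.4 and 32.6 counts per 1000 NOP56 counts in GM and 24.0, 25.4 and 28.7 in DM, a log2 difference of −0.31 ± 0.15 (adjusted p = 0.173, limma). Per NOP56 count, SNORD86 was lower in every DM sample than in any GM sample by an amount that did not pass the test. Levels within this gene ranged from 1.89 to 89.8 RPKM in GM, a ratio of 47.6 between SNORD86 and SNORD57 although both lie in the same transcript. SNORD56 had 14, 11 and 17 counts in GM and 4, 8 and 11 in DM (−0.71 ± 0.52), and SNORD57 had 4, 8 and 4 against 3, 0 and 7 (−0.49 ± 0.89). Both overlapped between the groups.

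NOP58, the partner of NOP56 in the snoRNP, fell by 1.14 ± 0.06 on the log2 scale and held SNORD70, SNORD11B and SNORD11. Only SNORD70 of the 3 was called, and SNORD11B (5, 1 and 8 against 4, 4 and 5 counts, 0.05 ± 0.76) and SNORD11 (1, 8 and 8 against 1, 5 and 2, −0.90 ± 0.89) were too thinly covered for a difference to be detected. GNL3, a nucleolar GTPase, fell by 1.03 ± 0.07 and held SNORD19B, with 17, 24 and 26 counts in GM and 7, 10 and 10 in DM (−1.14 ± 0.44, adjusted p = 0.0417, edgeR). The other 3 snoRNAs of GNL3, the SNORD19 copies ENSBTAG00000043914 and ENSBTAG00000042117 and SNORD69, had log2 fold changes of −1.20, −0.55 and −1.06 and were not called. Against GNL3 the 4 differed by −0.14 to 0.51.

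HSPA8, a heat shock protein of the cytosol, was the host with the largest fall, by 1.33 ± 0.06 on the log2 scale, and held 3 copies of SNORD14, which takes part in cleavage of the precursor of small subunit rRNA as well as in its methylation. ENSBTAG00000042134 had 36, 52 and 49 counts in GM and 15, 13 and 21 in DM (−1.31 ± 0.35, adjusted p = 0.00695, edgeR), which left it at 0.315 to 0.463 counts per 1000 HSPA8 counts in GM and 0.314 to 0.515 in DM. ENSBTAG00000043462 had 18, 13 and 14 against 6, 8 and 4 counts (−1.13 ± 0.50, adjusted p = 0.0702). Their differences from HSPA8 were 0.03 ± 0.30 and 0.21 ± 0.42, and that of ENSBTAG00000043480 was −0.53 ± 0.39. All 3 copies were lower in every DM sample.

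A further pair of SNORD14 genes lay in ENSBTAG00000040308, a host listed without a symbol whose log2 fold change was −0.31 ± 0.06. ENSBTAG00000042684 had 16, 7 and 15 counts in GM and 3, 1 and 1 in DM (−2.67 ± 0.72, adjusted p = 0.00793, edgeR), and fell by 2.16 ± 0.63 against its host (adjusted p = 0.0385, limma). ENSBTAG00000043325 had 15, 11 and 14 against 6, 8 and 4 counts (−0.97 ± 0.51) and a difference of −0.64 from the host, which did not pass the test. Of the 7 listed SNORD14 genes 5 were thus tested and 3 were called lower. Of the other snoRNAs known mainly for precursor rRNA cleavage or unusual roles, SNORD3, SNORD8, SNORD13 and SNORD118 were not among the 98 symbols.

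Several snoRNAs fell in hosts that were not called. RACK1, a component of the small ribosomal subunit, had 76628, 75567 and 72213 counts in GM and 80580, 79233 and 88314 in DM. SNORD96 made up 3.89, 4.29 and 4.49 counts per 1000 RACK1 counts in GM and 1.19, 1.35 and 1.65 in DM, a log2 difference of −1.60 ± 0.17 (adjusted p = 0.000267, limma). SNORD95, a large subunit guide in the same gene, had 37, 33 and 17 counts in GM and 10, 16 and 14 in DM and differed from RACK1 by −1.19 ± 0.37 (adjusted p = 0.0488). Both snoRNAs were lower per RACK1 count in all DM samples.

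The host ENSBTAG00000005296 had 48121, 56642 and 48800 counts in GM and 58449, 68319 and 65213 in DM, a log2 fold change of 0.49 ± 0.07, and held 2 copies of SNORD33, SNORD34 and SNORD35. The abundant SNORD33 copy ENSBTAG00000043197, a small subunit guide, had 87, 79 and 79 counts in GM and 23, 17 and 35 in DM (−1.53 ± 0.30, adjusted p = 0.00112, edgeR) and fell by 2.07 ± 0.30 against the host (adjusted p = 0.0013, limma). The second SNORD33 copy (8, 9 and 8 against 2, 1 and 5 counts) fell by 2.01 against the host (adjusted p = 0.0437). SNORD35 (ENSBTAG00000042883), with 30, 34 and 22 against 12, 14 and 20 counts, fell by 1.21 against it (adjusted p = 0.0232). These 3 members had fewer counts in every DM sample than in any GM sample. SNORD34 had 13 counts in GM and 2 in DM and was not called. After TMM normalization this was 5.77 times as many in GM, with an exact counting interval of 1.31 to 52.7.

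SNORD100 and SNORD101 shared the host ENSBTAG00000001360, whose log2 fold change was 0.39 ± 0.06 and which was not called. SNORD100, a small subunit guide, had 83, 74 and 64 counts in GM and 34, 26 and 22 in DM and fell by 1.65 ± 0.25 against the host (adjusted p = 0.00161, limma). SNORD101 had 13, 18 and 7 against 0, 2 and 5 counts and fell by 2.92 ± 0.87 (adjusted p = 0.0405). Neither overlapped between the groups.

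The remaining 6 of the 13 members called against their host had from 16 to 156 counts summed over the 6 samples. SNORD17, a large subunit guide and at 236 bases the longest tested member, had 45, 45 and 32 counts in GM and 6, 16 and 12 in DM and fell by 1.55 against its host. SNORD43 had 28, 35 and 40 against 8, 14 and 15 counts and fell by 1.33 against its host. SNORD58 (ENSBTAG00000043263) had 17, 8 and 13 against 4, 0 and 0, and SNORD16 had 30, 27 and 30 against 14, 11 and 17. The hosts of these 4 had log2 fold changes from −0.16 to 0.29. SNORD20 had 6, 6 and 4 counts in GM and none in DM, at least 4.73-fold lower in DM when 3 counts are set in that group, and its host fell by 1.21. SNORD14 (ENSBTAG00000042684) completes the 13.

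Other snoRNAs of the multi-copy hosts were not called against them. The further SNORD58 copies of ENSBTAG00000022902, with 8, 11 and 12 against 5, 0 and 4 counts and 4, 12 and 7 against 2, 1 and 5, had log2 fold changes of −1.57 ± 0.78 and −1.32 ± 0.76. Beside SNORD16, the host ENSBTAG00000005211 held a pair of SNORD18 copies with 6, 2 and 1 against 0, 3 and 1 counts and with 10, 3 and 7 against 4, 7 and 1. The host ENSBTAG00000011079, called lower by 1.10 ± 0.08, held 3 copies of SNORD88. One of these (ENSBTAG00000042784) had 4, 7 and 2 counts in GM and none in DM, at least 3.85-fold lower in DM, and was called lower, whereas the others, with 10, 6 and 14 against 3, 4 and 7 and with 11, 8 and 11 against 12, 2 and 6 counts, overlapped.

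Named hosts other than ribosomal protein and translation factor genes held 36 members. These had a median log2 fold change of −0.94, their 22 hosts had a median of −0.67, and none of the 36 was called against its host (median difference 0.06). The 11 members in ribosomal protein or translation factor genes had a median of −0.70, their 8 hosts one of 0.24, and 2 were called lower against the host (median difference −0.99). The 25 members in hosts listed by identifier only had a median of −1.31, their 14 hosts one of 0.14, and 11 were called lower against the host (median difference −1.55). This last class is set by the lack of a symbol and not by product. Its hosts may belong to either of the other classes, so differences between the classes cannot be read as differences between kinds of host. In the first class 10 members were called lower in DM, in the second 2 and in the third 10.

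SNORD10 was not called, in a host that was called lower. It had 41, 45 and 34 counts in GM and 27, 27 and 36 in DM (−0.24 ± 0.30, adjusted p = 0.501, edgeR), while EIF4A1, the translation initiation helicase that holds it, fell by 1.16 ± 0.06. Against EIF4A1 it was higher by 0.92 ± 0.24 (adjusted p = 0.0252, limma), under the size needed for a call. SNORD97, in the translation factor gene EIF4G2, had 33, 29 and 31 counts in GM and 30, 28 and 35 in DM, and was 0.70 higher against its host with an adjusted p of 0.0675 (limma). Both genes were named here after their values were seen. SNORD73 had the widest spread among DM samples of the abundant members, with 88, 54 and 87 counts in GM and 59, 109 and 24 in DM.

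Of the 56 tested members with no listed host, 36 lay outside the imprinted arrays. The test called 18 of these 36 lower and none higher (median log2 fold change −1.37), where 10.3% of all tested genes were called lower and 15.0% higher. Most of the 36 lay in tight groups on 1 strand. The group on chromosome 29 from 41852746 to 41855183 (minus strand) held 2 SNORD22 copies and SNORD26 to SNORD31, an order of genes that in human lies in introns of the non-coding SNHG1 gene. Its 8 genes together had 508, 670 and 560 counts in GM and 155, 158 and 136 in DM, a ratio of 0.273 per gene count. Of the 8 genes, 7 were called lower, and the exception was SNORD27, with 17, 24 and 10 against 10, 5 and 2 counts and a log2 fold change of −1.37 ± 0.62.

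Guides for both subunits fell in that group. SNORD29, a large subunit guide, had 53, 55 and 44 counts in GM and 14, 6 and 13 in DM (−2.01 ± 0.38, adjusted p = 0.000918, edgeR). SNORD30, also a large subunit guide, had 110, 157 and 148 against 36, 37 and 23 (−1.94 ± 0.28, adjusted p = 0.000124). SNORD28, a small subunit guide, had 62, 71 and 65 against 14, 14 and 18 (−1.93 ± 0.29, adjusted p = 0.000189). All DM samples of the 3 genes lay far below all GM samples. SNORD26 (15, 14 and 9 against 3, 4 and 2), SNORD31 (44, 36 and 40 against 14, 6 and 18) and the second SNORD22 copy (50, 49 and 68 against 19, 25 and 13) had log2 fold changes of −1.86, −1.48 and −1.38. A SNORD22 copy elsewhere (ENSBTAG00000042626) had 38, 40 and 22 against 9, 8 and 13 counts (−1.55 ± 0.41, adjusted p = 0.00666), and another (ENSBTAG00000042878) had 8 counts in GM and 3 in DM and was not called.

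The group on chromosome 16 from 56691273 to 56694516 (minus strand) held SNORD81, SNORD47, SNORD79, SNORD78, SNORD44, SNORD77, SNORD24 and SNORD75. Apart from SNORD24, genes of these symbols lie in introns of GAS5 in human. Another gene listed as SNORD24 (ENSBTAG00000043383) lay in RPL7A. Together the 8 genes of the group had 873, 803 and 763 counts in GM and 374, 393 and 353 in DM, a ratio of 0.484. All 8 were lower in every DM sample than in any GM sample, and of them SNORD44 and SNORD47 were called. SNORD44, a small subunit guide, had 72, 70 and 58 counts in GM and 22, 11 and 15 in DM (−1.87 ± 0.34, adjusted p = 0.000656, edgeR). Its neighbours SNORD78 (58, 60 and 50 against 26, 31 and 23) and SNORD81 (71, 56 and 66 against 34, 31 and 38) had log2 fold changes of −0.89 and −0.73, and those of SNORD79 and SNORD75 were −0.97 and −1.01. The 8 genes of the chromosome 16 group ranged from −1.87 to −0.73, and those of the chromosome 29 group from −2.01 to −1.37. Levels in GM ran from 7.94 RPKM for SNORD79 to 90.4 RPKM for SNORD24.

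On chromosome 19 from 33813459 to 33814837 (minus strand), SNORD65 and a pair of SNORD49 genes, which in human lie in SNHG29, had 186, 230 and 197 counts in GM and 62, 72 and 56 in DM. All 3 were called lower, SNORD49 (ENSBTAG00000042447), a large subunit guide, with 49, 58 and 39 against 14, 15 and 5 counts (−1.91 ± 0.42, adjusted p = 0.00247, edgeR). SNORD65 (56, 82 and 82 against 22, 27 and 22) and the second SNORD49 gene (81, 90 and 76 against 26, 30 and 29) had log2 fold changes of −1.46 and −1.36. The SNORD50 pair on chromosome 9 from 64688689 to 64689053 (plus strand), which in human lies in SNHG5, was also called lower in both genes, the second with 84, 75 and 56 against 20, 25 and 28 counts (−1.38 ± 0.28, adjusted p = 0.00131).

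**Figure D5:**
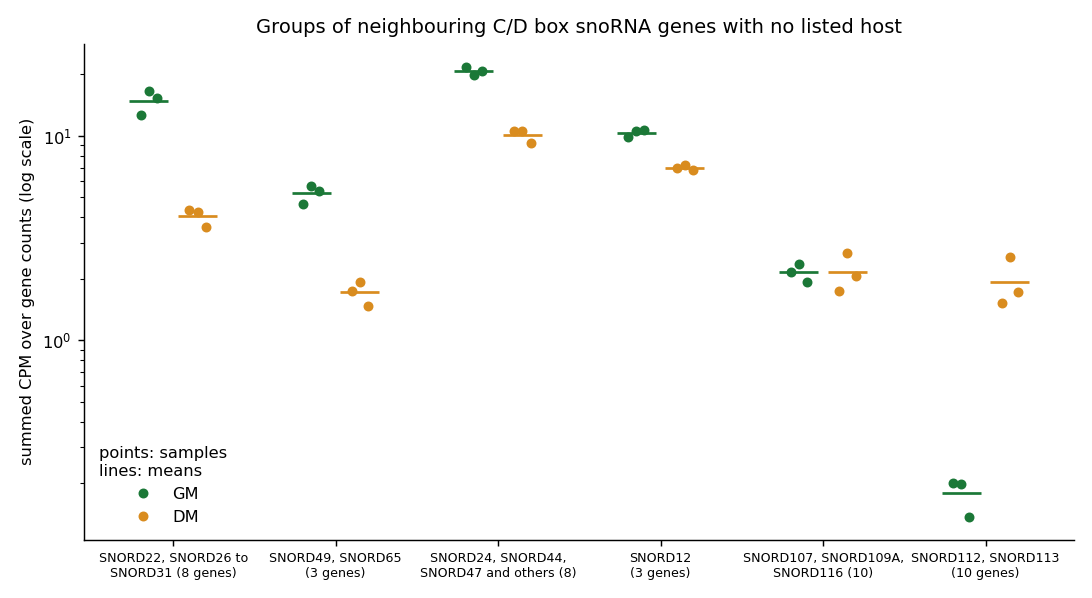
Summed CPM over gene counts (log axis) of 6 groups of C/D box snoRNA genes with no listed host, with points for the 3 GM and 3 DM samples and lines for their means. The first 4 groups were lower in all DM samples, the group of SNORD107, SNORD109A and SNORD116 overlapped, and the SNORD112 and SNORD113 group was higher in all DM samples.

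The SNORD112 and SNORD113 array on chromosome 21 moved the other way. It spans 99587 bases from 67444058 to 67543644 (plus strand) and held 43 listed genes, of which 10 reached 10 counts. These 10 together had 8, 8 and 5 counts in GM and 54, 95 and 66 in DM. The minimum of 10 counts lets in genes of such a low level through their DM counts, so the whole array was also summed: the 43 genes had 12, 9 and 8 counts in GM and 68, 103 and 84 in DM. The 33 genes under the minimum, taken alone, had 4, 1 and 3 counts in GM and 14, 8 and 18 in DM, and 13 of the 16 with any count had more in DM. Of the 10 genes tested, 7 were called higher in DM, or 4 without DM2.

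Single copies had few counts in GM and reached the minimum of 10 counts mainly through DM. Their ratios and p-values are those of copies let in that way and may overstate the change. The SNORD113 copy with the most counts in DM, ENSBTAG00000043342, had 0, 0 and 1 counts in GM and 11, 15 and 17 in DM (adjusted p = 0.000414, edgeR). After TMM normalization its ratio was 48.5, with an exact counting interval from 8.24 to 1958. ENSBTAG00000042401 had 1, 0 and 1 against 17, 15 and 7 counts (adjusted p = 0.00131), a ratio of 22.0 with an interval from 5.69 to 188. ENSBTAG00000042739 had 1, 1 and 0 against 9, 15 and 6 (adjusted p = 0.00275), a ratio of 16.9 with an interval from 4.29 to 146. Every DM sample of these copies had more counts than any GM sample.

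The other copies were lower in count still. ENSBTAG00000043859 had 1, 0 and 0 counts in GM and 4, 14 and 4 in DM, ENSBTAG00000042727 had 1, 0 and 0 against 3, 6 and 6, and ENSBTAG00000042543 had 1, 0 and 0 against 3, 6 and 5. The SNORD112 gene ENSBTAG00000044760 had no count in GM and 4, 4 and 3 in DM, at least 4.13-fold higher in DM when 3 counts are set in GM. The 3 copies that were not called had 2, 5 and 0 against 1, 7 and 9, 1, 1 and 2 against 2, 4 and 6, and 0, 1 and 1 against 0, 9 and 3 counts. The median log2 fold change of the 10 was 3.73, or 3.58 with the SNORD112 gene at its bound, and has the same limit, since DM counts let these copies in. The copies are near-identical by family, and how reads that match several copies were counted is not given in the sources used here, so the sum over the array is firmer than the value of a copy.

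Genes beside the array moved in both directions. In human and mouse this imprinted region expresses DLK1 and RTL1 from the paternal copy and its snoRNAs and miRNAs from the maternal one. RTL1, a retrotransposon-derived gene on the opposite strand, had 2, 0 and 5 counts in GM and 62, 69 and 116 in DM (log2 fold change 5.22 ± 0.60, adjusted p = 2.29e-05, edgeR). DLK1, an inhibitor of Notch signalling, had 60, 76 and 47 counts in GM and 11, 1 and 2 in DM (−3.48 ± 0.61, adjusted p = 0.000509). On the plus strand, the miRNA gene ENSBTAG00000047889 had 2, 3 and 2 counts in GM and 30, 26 and 19 in DM, and bta-mir-656 had 1, 0 and 1 against 4, 5 and 6, and both were called higher. None of these 4 genes overlapped between the groups.

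No gene of the other imprinted array, the counterpart of the human Prader-Willi region, was called. Its 10 tested genes on chromosome 21, namely SNORD107, SNORD109A and 8 of 20 SNORD116 copies, had 86, 95 and 71 counts in GM and 62, 99 and 79 in DM, a ratio of 0.996 for GM over DM per gene count. All 10 genes overlapped between the groups when taken singly, and their log2 fold changes ranged from −1.44 to 0.56 with a median of −0.27, 9 of them below 0. The 8 SNORD116 copies together had 29, 37 and 23 counts in GM and 18, 18 and 21 in DM, a ratio of 0.678 per gene count with all DM samples below all GM samples. The level sum of all 10 rested on SNORD109A, the most counted of them, which had 28, 40 and 39 against 30, 66 and 46 counts (0.56 ± 0.34, adjusted p = 0.171, edgeR). The median standard error of these genes was 0.91, so that a change of single copies like that of the members elsewhere was not detectable at this depth. All 6 SNORD115 genes had no count in any sample.

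H/ACA box snoRNAs (SNORA), which guide pseudouridylation with other core proteins, were lower too: their summed level had a DM over GM ratio of 0.486. The test called 30 of 104 genes lower and 2 higher (median log2 fold change −1.03), where 10.3% of all tested genes were called lower and 15.0% higher. The small Cajal body RNAs (SCARNA) had 119, 112 and 95 counts in GM and 130, 112 and 168 in DM, higher in all DM samples per gene count, and 1 of 16 was called lower and 2 higher. The small nuclear RNA genes had 79, 100 and 73 against 78, 109 and 102 counts. The replication-dependent histone genes, whose mRNAs also lack a poly(A) tail, had a summed DM over GM ratio of 0.445. Singly they were split: of 18 tested, 5 were called lower and 3 higher, and 6 had a log2 fold change above 0. The lower sums of C/D box and H/ACA box genes were thus shared by the sum of the histone genes, but not by the sums of SCARNA or snRNA genes. The median standard error of the log2 fold change was 0.85 for SCARNA and 1.14 for snRNA genes. A like fall of most single genes of these classes was therefore not detectable.

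Most listed genes for snoRNP proteins and for assembly and processing factors, not all of them specific to C/D box snoRNAs, were lower as well. Of 27 listed genes, 7 were called lower and none higher, where 10.3% of all genes were called lower. The log2 fold change was below 0 in 24 of them, and the median was −0.57. Of the 3 above 0, PARN and GEMIN2 were higher in all DM samples by CPM, and NCBP2 overlapped. FBL, the methyltransferase, had 11725, 12894 and 10650 counts in GM and 3955, 4379 and 4419 in DM (log2 fold change −1.29 ± 0.06, adjusted p = 4.27e-08, edgeR). SNU13, which binds the kink-turn of the RNA first, had 4436, 4731 and 4183 against 1991, 1994 and 2112 counts, and at −0.96 ± 0.06 it lay just under the size needed for a call. All 4 core proteins were lower in every DM sample. The largest falls were in NOLC1, a nucleolar and Cajal body chaperone (−1.58 ± 0.07), and TCOF1, a nucleolar factor of rRNA transcription (−1.55 ± 0.07). RUVBL1 and RUVBL2, ATPases of snoRNP assembly, fell by 1.19 and 1.53 on the log2 scale.

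Of the processing factors, the listed nucleases and the export adaptor PHAX were not called, a call needing a log2 fold change beyond 1 in size. DBR1, the lariat debranching enzyme, had a log2 fold change of −0.57 ± 0.08, EXOSC10, a nuclear exosome nuclease, −0.70 ± 0.07, and XRN2, a nuclear exonuclease, −0.15 ± 0.07. PARN, which trims small RNA ends, had a value of 0.28 ± 0.08 (adjusted p = 0.00782, edgeR), with 1407, 1358 and 1314 counts in GM and 1350, 1411 and 1656 in DM. By CPM it was higher in all DM samples. PHAX had a value near 0 (−0.01 ± 0.08, adjusted p = 0.919, edgeR).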

How the data were processed

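Poly(A) RNA-seq libraries of 3 GM and 3 DM samples were analysed from the tables the authors deposited. The authors aligned reads with HISAT2 and deposited raw counts per gene, citing HTSeq for counting, while the submitters' processing notes name Bowtie and mouse builds. The RPKM values were computed by the authors from these counts, the deposited gene length and the sample's summed counts. The study's methods name a buffalo assembly as the reference, yet the tables list cattle Ensembl identifiers with positions and name no build. How buffalo reads came to be counted on cattle genes, and the strand setting, are not given in the sources used here, so positions, hosts and counts of 0 hold only for the genes as listed. The authors' own lists of fold changes and p-values were not used.

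Genes with at least 10 summed counts were normalized by TMM and tested with edgeR 4.0.16 (quasi-likelihood, Benjamini-Hochberg over all genes), where an adjusted p under 0.05 and a log2 fold change beyond 1 made a call. A host was the smallest listed gene of the same strand that contains the snoRNA. The log2 ratio of nested to host counts (0.5 added to each) was tested with limma 3.58.1 over all pairs. Hosts listed by identifier only could not be classed by product. Neighbours within 20000 bases formed a group, a rule chosen after the files were seen. Members were named by depth, size of change, shared hosts, listed families and calls against the host. Members and gene lists were chosen with earlier results of these data known. Counting intervals are exact and, like bounds, cover counting error only. Of the tested members, 4 overlap a gene of the opposite strand, and reads of the 2 cannot be told apart. The scripts were tested on simulated data. Alternatives were DESeq2 1.42.0, other scalings and filters, a replicate block, each replicate left out, the ncRNA table, 1 copy per symbol and other forms of the host comparison.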

Additional observations from a re-analysis of the deposited data

How the results depend on the processing

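The 40 lower calls stayed within 31 to 46 over all alternatives, while the median over the tested members, called or not, was −1.17 to −0.70 on the log2 scale (the alternative with no minimum fold change keeps the same fit). With DESeq2, 32 of the 40 were shared and 8 lost, and 31 were shared in the ncRNA table. Leaving out 1 replicate gave 33 to 40 lower and 4 to 8 higher calls. The 7 higher calls became 1 with filterByExpr and 0 with at least 50 summed counts, since these filters remove most copies, and 2 with 1 copy per symbol. The summed DM over GM ratio was 0.482 after TMM and 0.493 without the top 5 members.

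Deviations of same-numbered samples from their group means were not correlated (−0.01, −0.02 and −0.01). With 3 samples per group, this cannot show whether GM and DM samples shared a culture or an animal. With a replicate block, 37 lower and 7 higher calls and 8 pairs lower against the host were found, against 13 without it. The pairs were also 8 with at least 50 counts for both genes, and 3 to 11 with 1 replicate left out. Pairs higher against the host numbered 0, but 1 with a pseudocount of 1 and 0 to 1 with 1 replicate left out. The cause was not tested. Without a minimum fold change, 19 of the listed snoRNP protein and factor genes were lower and 2 higher, since the rule is looser.

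The sign turned in members whose main log2 fold change was smaller than its standard error. That of SNORD57 was −0.49 ± 0.89 and that of SNORD88 (ENSBTAG00000042613) −0.39 ± 0.65, and both turned without DM2. With 1 replicate left out, SNORD57 ranged from −1.54 to 0.10, SNORD88 (ENSBTAG00000042613) from −1.16 to 0.061, SNORD12 (ENSBTAG00000042099) from −0.13 to 0.039 and SNORD11B from −0.44 to 0.72, including −0.03 without DM3. In the ncRNA table SNORD10 was at 0.013 and that SNORD12 gene at 0.20, and by library size alone SNORD11B was at −0.047. Of the other alternative values of single genes, 1193 kept their side of the threshold, 106 lost a call and 11 gained one. Depth limits members with 10 to 49 counts most.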
